A study of Saccharomyces cerevisiae with 2 samples.

Results

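Iron-sulfur cluster assembly genes are the nuclear genes whose proteins build iron-sulfur clusters, the small iron and sulfur cofactors that enzymes use to move electrons and bind substrates, and place them in the proteins that need them. The genes described here were taken by name from the deposited table: the mitochondrial assembly genes, the export genes and the cytosolic assembly genes, with the glutaredoxins left out. The list held 32 names. BOL3 and AIM1 are names of the same gene, YAL046C, so the names stood for 31 genes, and all 31 had a row among the 6142 named rows of the table. Each of the 31 had a mean of at least 50 normalized reads, the minimum used for counts over genes, which 5973 genes passed.

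RNA was sequenced from 1 culture of the haploid budding yeast strain BY4741 treated with 2.5 mM paraquat for 8 h in rich glucose medium, and from 1 untreated mid-log culture of the same strain. Paraquat is a herbicide that takes electrons inside cells and hands them to oxygen, which makes superoxide, and superoxide is known to attack exposed clusters. Both cultures share the BY4741 background, a mating type a strain that carries deletions at HIS3, LEU2, MET15 and URA3. The labels call the untreated group WT and give no time for it, so time in culture and paraquat cannot be told apart. The libraries held 165264107 reads on named genes after paraquat and 164909400 without it. STE2, the receptor specific to mating type a cells, stood at 65428 normalized reads per kb after paraquat and 81761 untreated, and STE3, the alpha-cell receptor, at 832 and 509. HIS3, of which the strain is known to keep a part, had 12482 normalized reads after paraquat and 17852 untreated, and the table does not show which part of the gene they cover, so this row checks nothing. With 1 library per group there is no replicate check of any difference. Intervals are 95% counting intervals of the reads in these libraries and leave out the spread between cultures. In RNA from a whole culture, a change in every cell and a change in a share of the cells cannot be told apart.

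In yeast, cluster building starts in the mitochondrial matrix. A cysteine desulfurase complex frees sulfur from cysteine, a ferredoxin and its reductase supply electrons, and the cluster forms on a scaffold protein, from which an Hsp70 chaperone system releases it. Later factors make the larger clusters of mitochondrial enzymes, and a sulfur-bearing product leaves through the transporter Atm1 and feeds the cytosolic iron-sulfur assembly (CIA) proteins, which serve cytosolic and nuclear targets. The pathway also reports iron status: when its mitochondrial part fails, the transcription factors Aft1 and Aft2 switch on the iron regulon, a group of iron uptake genes to which the scaffold genes ISU1 and ISU2 also belong.

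The scaffold genes stood apart from the rest of the machinery. ISU2 had 77145 normalized reads in paraquat-treated cells, against 18932 in untreated cells, a 4.07-fold higher level (4.01 to 4.14). ISU1 had 74029 normalized reads after paraquat, against 23934 untreated, and was 3.09-fold higher (3.05 to 3.14). These were the 2 members at least 2-fold higher, where 3.08% of all tested genes were, and 0 members were at least 2-fold lower, where 1.52% of tested genes were. By log2 change ISU2 ranked 28 and ISU1 ranked 54 of the 5973 tested genes. The member just outside 2-fold was ISA1 at 1.52-fold. Both scaffold genes stayed past 2-fold in every scaling tried.

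Sites shown here are those that the iron-responsive factors Aft1 and Aft2 (TGCACCC or the shorter ACACCC) or the peroxide-responsive factor Yap1 (TTACTAA) are known to prefer, in the 500 bases before the start codon, for the 4 members furthest above 0 and, for contrast, NFS1. They come from the RefSeq R64 assembly and annotation and are written 5′ to 3′ along the strand of the gene, with the motif in capitals. The authors' build is not given in the sources used here, and no read is placed on these sites.
ISU1, chrXVI:297290-297318, plus strand: ataaggtgcgtTGCACCCcaattagccat
NFS1, chrIII:94473-94501, minus strand: caatactattaTGCACCCtattacccgca
ISU2, chrXV:762323-762350, minus strand: tttatatatgtACACCCataatacagat
ISU2, chrXV:762505-762533, minus strand: gccccttaacgTTACTAAgcaaaaacaaa
ISA1, chrXII:87240-87268, plus strand: atcctttagaaTTACTAAgaaactgttat
LTO1, chrXIV:157461-157489, minus strand: tcagtataatcTTACTAAtataaaaatct

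The TGCACCC match of ISU1 begins 252 bases before its start codon and that of NFS1 220 bases before. Searched on both strands, TGCACCC occurred in the windows of 2 of 31 members, ISU1 and NFS1, and of 2.32% of 5862 protein-coding genes. The 2 genes with this match differ in their change, since NFS1 lay at 0.98 of its untreated level. GCACCC, which every TGCACCC match contains, occurred in 7 of 31 members against 7.59% of genes. Besides ISU1 and NFS1 these were CFD1, FRA1, NAR1, NBP35 and YFH1. ACACCC occurred in 4 of 31 members, CIA2, ISA2, ISD11 and ISU2, against 10.8% of genes. TTACTAA occurred in 9 of 31 members against 11.9% of genes, and ISU1 was not among them. The 9 were CIA1, DRE2, ISA1, ISA2, ISU2, LTO1, NBP35, TAH18 and YFH1. They lay on both sides of 0 on the deposited scale, with CIA1 at -0.22, YFH1 at -0.10 and ISA2 at -0.05 below it. ISA1 holds a further TTACTAA match, which begins 495 bases before its start codon. Of the genes at least 2-fold higher that have such a window, 26 of 154 (16.9%) held TGCACCC, against 1.92% of genes within 2-fold. For GCACCC it was 39 of 154 (25.3%), against 7.17%, and for ACACCC 31 of 154 (20.1%), against 10.5%. TTACTAA was held by 22 of 154 (14.3%), against 11.9% of genes within 2-fold. These differences were not tested. A match is a string of letters and does not show binding.

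**Figure D1:**
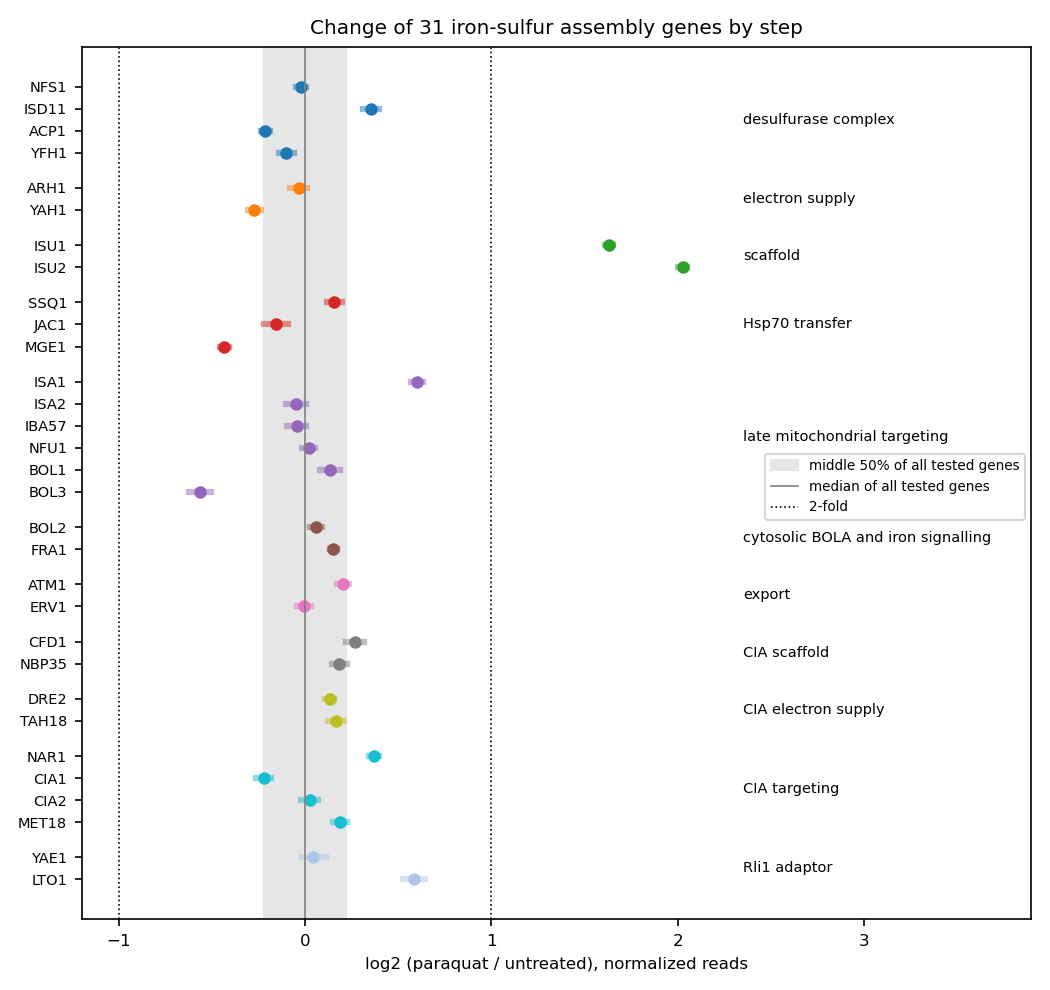
Log2 ratio of paraquat to untreated normalized reads for each of the 31 genes, grouped by step, with 95% counting intervals as bars, the middle 50% of all tested genes shaded and 2-fold dotted. ISU1 (1.63) and ISU2 (2.03) lie past the 2-fold mark and the other 29 genes lie between -0.57 (BOL3) and 0.60 (ISA1).

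Reads can be split wrongly between similar genes, and ISU1 and ISU2 are paralogs. Their coding sequences, 498 and 471 bases long, aligned at 71.9% identity over 384 bases, and the longest stretch they share without a difference is 12 bases. None of the 31 members passed 95% identity over 80% of its length with another coding sequence, and none overlaps another gene of the R64 annotation. Neighbouring genes on the chromosome did not share the scaffold genes' size of change. The neighbours of ISU1, GIP3 and ODC1, lay at log2 changes of -0.17 and -0.41. Those of ISU2, HER1 and RPB8, lay at 0.42 and -0.11.

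The balance between the scaffold paralogs differed between the libraries. ISU2 gave 51.0% of the reads on the pair after paraquat (exact binomial 95% interval 50.8 to 51.3), against 44.2% untreated (43.7 to 44.7). This share is taken inside each library, so the scaling between libraries does not enter it. Together ISU1 and ISU2 held 27.6% of all reads on the 31 members after paraquat, against 10.01% untreated. As a share of all named-gene reads, the pair took 0.100% after paraquat and 0.0237% untreated, and the other 29 members took 0.263% and 0.213%. On the deposited scale the summed normalized reads of the pair were 3.53-fold higher after paraquat. Those of the other 29 members were 1.03-fold higher.

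The deposited scaling decides on which side of 0 many of the smaller changes lie. Scaling both libraries to total gene reads instead moves every log2 value up by 0.26, and 9 members then change sign, namely ACP1, ARH1, CIA1, ERV1, IBA57, ISA2, JAC1, NFS1 and YFH1. Values below are on the deposited scale, on which the median of all tested genes is -0.003. Across the 31 members the median log2 change was 0.06, a 1.04-fold difference, with 19 above 0, as were 49.7% of tested genes, and 12 below 0. Of the members 27 of 31 lay within 1.5-fold, against 86.4% of tested genes, and 21 of 31 within 1.2-fold, against 57.6%. The standard deviation between genes was 0.51 over the 31 members, against 0.47 over all tested genes. ISU1 and ISU2 carried much of it, since the other 29 had a standard deviation of 0.26 and a median of 0.04. These 2 genes are the highest members, so leaving them out had to narrow the spread. The 0.26 therefore does not compare with the 0.47 over all tested genes. Counting error was small beside the spread between members. An interval wholly above 1 was found for 16 members (42.6% of tested genes) and one wholly below 1 for 7 (44.0% of tested genes). The other 8 had an interval that holds 1.

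Of the 31 members 0 had, in the authors' deposited table, an adjusted p under 0.05, as had 0 of 6142 genes, and the smallest adjusted p of a member was 0.999. Unadjusted p-values under 0.05 in the authors' deposited table were those of ISU2 (0.0128) and ISU1 (0.0227), where 1.40% of genes had such a p with a higher level after paraquat and 0.716% with a lower one. Their p-values ranked 23 and 45 of 6142 in that table. The next member was ISA1 with 0.175 in the authors' deposited table. That test compared 1 library with 1.

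The 4 genes of the desulfurase complex lay within 1.5-fold of their untreated levels, as did 86.4% of tested genes, and 3 lay within 1.2-fold, where 57.6% lay. NFS1, the desulfurase itself, had 20985 normalized reads after paraquat and 21322 untreated, and its fold of 0.98 has an interval that holds 1 (0.97 to 1.003). ISD11, the small protein that stabilizes Nfs1, had 10999 normalized reads after paraquat and 8604 untreated, 1.28-fold higher (1.24 to 1.32). ACP1, the acyl carrier protein bound to Isd11, had 27744 and 32179, a log2 change of -0.21. YFH1, the yeast frataxin, which speeds sulfur transfer, had 10081 and 10814, a log2 change of -0.10. Within this complex ISD11 was thus the member furthest above the untreated level and ACP1 the furthest below.

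The 2 electron suppliers also lay within 1.5-fold of their untreated levels, and 1 of them within 1.2-fold, where 57.6% of tested genes lay. YAH1, the matrix ferredoxin, had 10711 normalized reads after paraquat and 12936 untreated, 1.21-fold lower (1.18 to 1.24). ARH1, the ferredoxin reductase that feeds it, had 7345 and 7523, a log2 change of -0.03.

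Release of the cluster from the scaffold needs the dedicated Hsp70 Ssq1, the J-protein Jac1 that brings Isu to it, and the nucleotide exchange factor Mge1. MGE1 had 27642 normalized reads after paraquat, against 37325 untreated, 1.35-fold lower (1.33 to 1.37). SSQ1 had 11711 and 10502, a log2 change of 0.16, and JAC1 had 3739 and 4170, a log2 change of -0.16. Mge1 also serves Ssc1, the main matrix Hsp70. In the list of 9 mitochondrial Hsp70 and J-protein partners and related matrix chaperones outside the members, 0 were at least 2-fold changed. That mark was passed upward by 3.08% of tested genes and downward by 1.52%, so 0 of 9 does not set these chaperones apart. The median of the 9, -0.12, turned to 0.14 when scaled to total gene reads, where the median of all tested genes was 0.26. On the deposited scale HSP60, the matrix chaperonin, lay furthest from 0 in this list at -0.39. The genes in its class, the highest of 10 classes of mean normalized reads, had a median of -0.31.

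The late mitochondrial factors held both the highest and the lowest member outside the scaffold. ISA1, which with Isa2 and Iba57 makes the larger clusters, had 17726 normalized reads after paraquat, against 11689 untreated, 1.52-fold higher (1.48 to 1.55). Its partner ISA2 had 5732 and 5927, a log2 change of -0.05, and IBA57 had 5767 and 5954, also -0.05. The counting interval of ISA1 does not overlap those of ISA2 and IBA57, which both hold 1. At this depth 42.6% of tested genes had an interval wholly above 1 and 44.0% one wholly below 1. The intervals leave out the spread between cultures. NFU1, which hands clusters to targets such as lipoic acid synthase, had 12948 and 12777, a log2 change of 0.02.

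BOL3, a BolA-like protein that acts with Nfu1, had 3993 normalized reads after paraquat, against 5911 untreated, 1.48-fold lower (1.42 to 1.54). It was the member furthest below 0 and the sign held in every scaling tried. BOL1, its matrix paralog, had 6078 and 5543, a log2 change of 0.13. The BOL1 and BOL3 genes are direct neighbours transcribed away from each other, and they lay on opposite sides of 0. BOL3, MGE1 and YAH1 were the 3 members still below 0 when scaled to total gene reads.

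Export and cytosolic iron signalling genes lay close to their untreated levels. ATM1, the transporter of the inner membrane, had 16629 normalized reads after paraquat and 14443 untreated, 1.15-fold higher (1.13 to 1.18). ERV1, the sulfhydryl oxidase of the intermembrane space linked to export, had 10729 and 10780, a log2 change of -0.01. BOL2 and FRA1 act with the cytosolic glutaredoxins to pass the mitochondrial signal to Aft1. BOL2 had 16572 and 15929, a log2 change of 0.06, and FRA1 had 50320 and 45357, a log2 change of 0.15.

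The cytosolic CIA genes lay slightly above 0 as a group. Of 10 genes, with the Rli1 adaptor counted in, 9 lay above 0 and the median was 0.17, where 49.7% of tested genes lay above 0. When scaled to total gene reads all 10 did with a median of 0.43, where 78.6% of tested genes lay above 0 with a median of 0.26. The 15 mitochondrial members other than ISU1 and ISU2 had a median of -0.05 with 10 below 0, which turned to 0.21 with 3 below 0 when scaled to total gene reads. The difference between these sets has no replicate and was not tested.

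CFD1 and NBP35 form the cytosolic scaffold. CFD1 had 7433 normalized reads after paraquat and 6173 untreated, 1.204-fold higher (1.16 to 1.25), and NBP35 had 10049 and 8846, 1.14-fold higher (1.10 to 1.17). DRE2 and TAH18, the electron chain of the cytosolic pathway, stood at 31148 and 28430 normalized reads for DRE2 and at 8924 and 7956 for TAH18, log2 changes of 0.13 and 0.17. These 4 genes all lay above 0, between 0.13 and 0.27 on the log2 scale.

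Among the targeting factors NAR1, which links the scaffold to the targeting complex, was the highest. It had 21611 normalized reads after paraquat, against 16726 untreated, 1.29-fold higher (1.27 to 1.32). The targeting complex itself did not move together: MET18 had 12496 and 10985 (log2 change 0.19), CIA2 had 8394 and 8257 (0.02), and CIA1 had 9357 and 10913 (-0.22). CIA1 was the 1 cytosolic member below 0.

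LTO1 and YAE1 form the adaptor that brings the targeting complex to Rli1, the ribosome recycling protein. LTO1 had 5863 normalized reads after paraquat, against 3905 untreated, 1.502-fold higher (1.44 to 1.56). YAE1 had 3781 and 3666, a log2 change of 0.04 with an interval that holds 1. Counted at 1.5-fold, 4 of 31 members were higher (ISU2, ISU1, ISA1 and LTO1), where 7.75% of tested genes were, and 0 were lower, where 5.88% were. The counting intervals of ISA1 and LTO1 both hold 1.5. Relative to the own expression class 3 members were at least 1.5-fold higher, without LTO1, where 6.78% of tested genes were. In that setting 1 member, BOL3, was at least 1.5-fold lower, as were 299 of 5973 tested genes. When scaled to total gene reads 6 members were higher, with ISD11 and NAR1 added, where 16.9% of tested genes were. The gene upstream of LTO1 in the same direction, the copper chaperone gene ATX1, lay at a log2 change of 0.54.

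**Figure D2:**
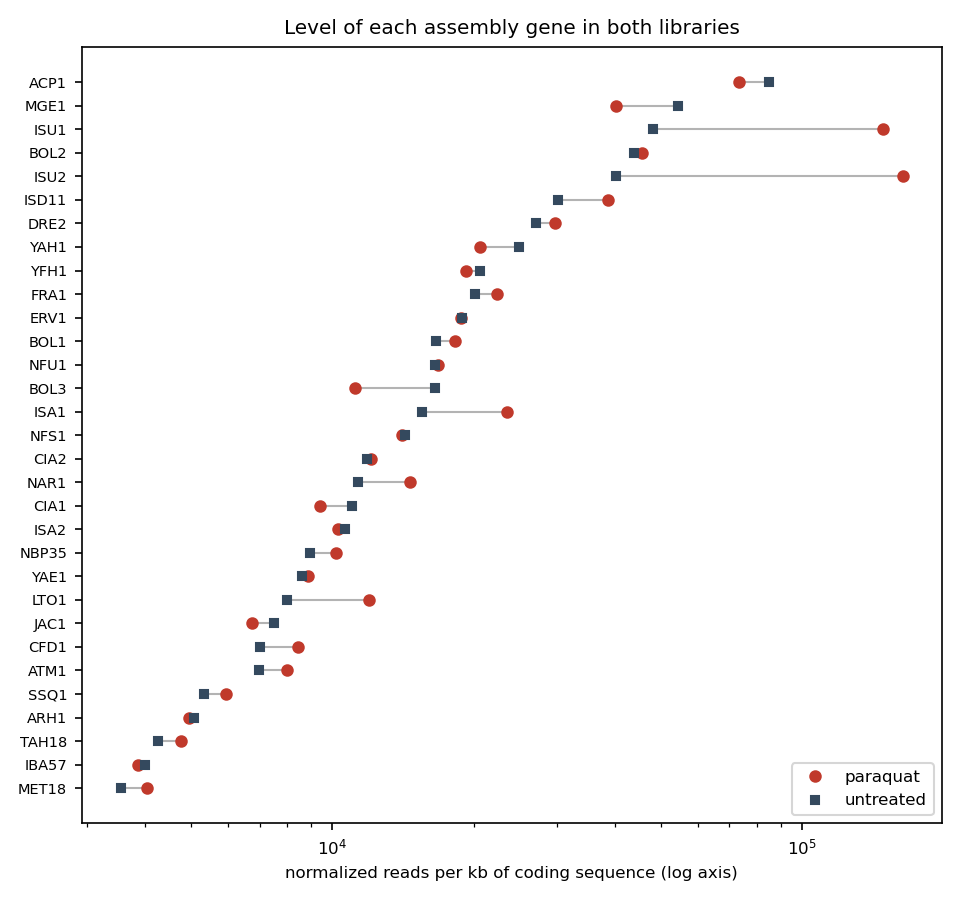
Normalized reads per kb of coding sequence (log axis) for each gene in the paraquat library (circles) and the untreated library (squares), ordered by the untreated level. ISU1 and ISU2 stand at 148652 and 163789 after paraquat, above ACP1 at 73397, while ACP1 has the highest untreated level at 85130.

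Levels can be compared between genes only per length, and coding length was used because the R64 annotation gives no untranslated regions. On this scale the untreated order was led by ACP1 (85130 normalized reads per kb), MGE1 (54330), ISU1 (48061), BOL2 (43882) and ISU2 (40195). After paraquat it was led by ISU2 (163789), ISU1 (148652), ACP1 (73397), BOL2 (45654) and MGE1 (40235). Acp1 and Mge1 also act outside cluster assembly, in fatty acid synthesis and in protein import. At the low end stood MET18 (4032 after paraquat and 3545 untreated), IBA57 (3860 and 3985), TAH18 (4767 and 4250) and ARH1 (4956 and 5076). Among protein-coding genes with a mean of at least 50, ISU2 lay at percentile 96.3 after paraquat and 87.7 untreated. In the order of members, counted from the highest, ISA1 took place 8 after paraquat and 15 untreated, and BOL3 took place 19 after paraquat and 14 untreated.

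Ratios between partner genes inside a library do not depend on the scaling between libraries. Per kb, ISU1 and ISU2 together stood at 22.2 times NFS1 after paraquat, against 6.18 times untreated. ISD11 stood at 2.75 times NFS1 after paraquat and 2.12 times untreated. ACP1 stood at 5.23 and 5.96 times NFS1, and YFH1 at 1.37 and 1.44 times. The scaffold ratio thus differed 3.60-fold between the libraries, and these 3 ratios to NFS1 by at most 1.30-fold.

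The other partner pairs parted less than the scaffold genes and NFS1 did. ISA1 stood at 2.29 times ISA2 after paraquat and 1.46 times untreated, whereas IBA57 to ISA2 was 0.376 and 0.375. BOL1 to BOL3 was 1.63 after paraquat and 1.01 untreated, and LTO1 to YAE1 was 1.35 and 0.928. MGE1 to SSQ1 was 6.78 after paraquat and 10.2 untreated. CFD1 to NBP35 (0.828 and 0.781) and TAH18 to DRE2 (0.160 and 0.157) were within 1.06-fold of each other in the 2 libraries.

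**Figure D3:**
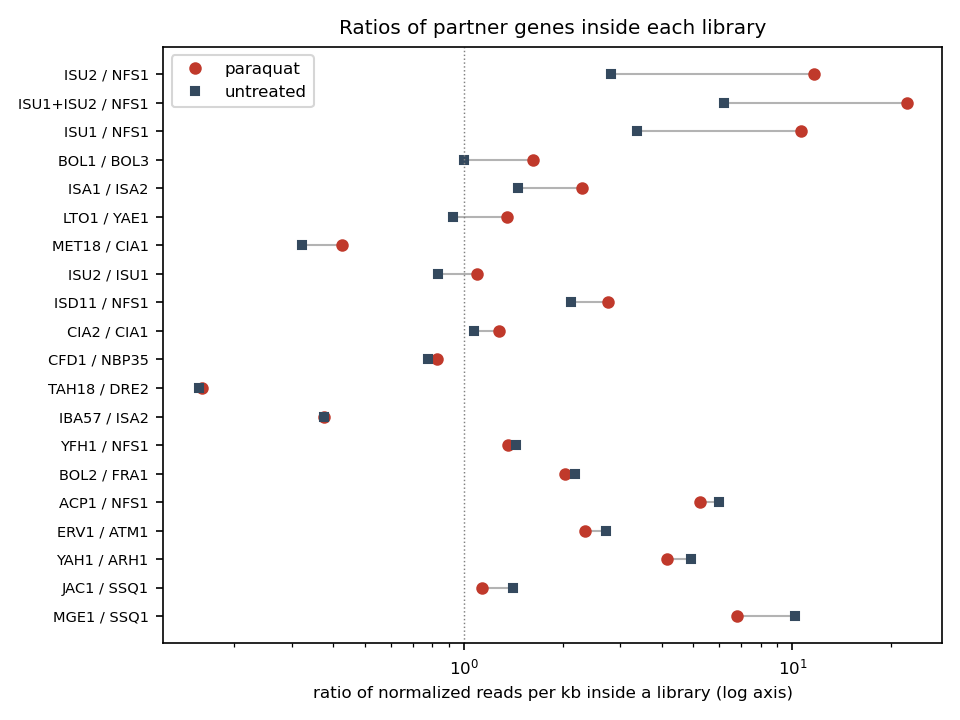
Ratio of normalized reads per kb between partner genes inside the paraquat library (circles) and inside the untreated library (squares), on a log axis. Pairs are ordered by the paraquat ratio divided by the untreated ratio. ISU1 plus ISU2 to NFS1 is 22.2 after paraquat and 6.18 untreated, while IBA57 to ISA2 is 0.376 and 0.375.

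Across all genes the log2 change depended on expression level, with class medians from 0.27 in the lowest to -0.31 in the highest of 10 classes of mean normalized reads. The 31 members fell in classes 3 to 9, where the medians ran from 0.04 to -0.09. Set against the median of its own class, ISU2 still differed by 2.11 and ISU1 by 1.72 on the log2 scale. By the same measure 20 of 31 members lay above their class median, as did 49.9% of tested genes, and NFS1 was the 1 member whose sign changed.

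**Figure D4:**
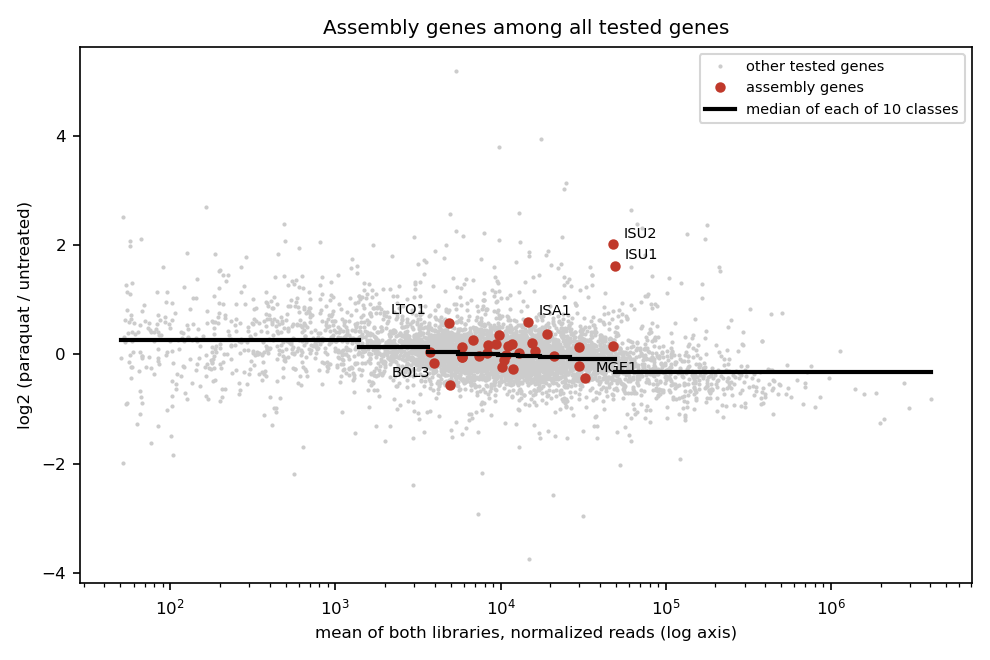
Log2 ratio of paraquat to untreated normalized reads against the mean of both libraries (log axis) for 5973 tested genes, with the 31 assembly genes in red and the median of each expression class as a black bar. ISU1 and ISU2 lie above most genes at their level, though other genes lie as high there, such as FIT2 (log2 1.98 at a mean of 48829). The other members lie within the cloud.

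Genes that use or feed the pathway were set beside the machinery. Of 7 mitochondrial cluster-binding enzymes 6 lay below 0, where 3006 of 5973 tested genes did. Their median was -0.58 on the deposited scale and -0.33 scaled to total gene reads, where the median of the assembly genes was 0.06 and 0.32. BIO2, biotin synthase, was 2.87-fold lower (2.75 to 2.999), with 2627 normalized reads after paraquat and 7541 untreated. ACO1, the aconitase of the tricarboxylic acid cycle, was the 1 enzyme above 0, at 2.45-fold higher (2.43 to 2.47).

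Cytosolic and nuclear cluster-binding proteins, the targets of the CIA genes, lay on both sides. Their median was 0.03 over 18 genes, 10 above 0 and 8 below, where 49.7% of tested genes lay above 0. Of the 18 genes 1 was at least 2-fold lower and 0 were at least 2-fold higher, where 1.52% and 3.08% of tested genes were. The 1 lower gene was the isomerase gene LEU1, which was 3.76-fold lower (3.73 to 3.80). RLI1, the target of Lto1 and Yae1, had 49664 normalized reads after paraquat and 40759 untreated, 1.22-fold higher (1.202 to 1.235).

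Of 11 glutaredoxin and mitochondrial iron supply genes, 1 was at least 2-fold higher and 0 were at least 2-fold lower, where 3.08% and 1.52% of tested genes were. Their median was 0.08. MRS4, a mitochondrial iron importer and an Aft1 target, had 20125 normalized reads after paraquat, against 7965 untreated, 2.53-fold higher (2.46 to 2.59). Its paralog MRS3 had 7062 and 7522, a log2 change of -0.09. GRX5, the matrix glutaredoxin that receives the cluster from Isu, had 13183 and 12932, a log2 change of 0.03 with an interval that holds 1. In the iron-sensing circuit 5 of 6 genes lay above 0, where 49.7% of tested genes did, and the median was 0.49. When scaled to total gene reads all 6 lay above 0, where 78.6% of tested genes did. TIS11, whose protein promotes the breakdown of mRNAs of iron-using enzymes, was 8.24-fold higher (8.00 to 8.49), and AFT1 itself was 1.496-fold higher (1.46 to 1.53).

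**Figure D5:**
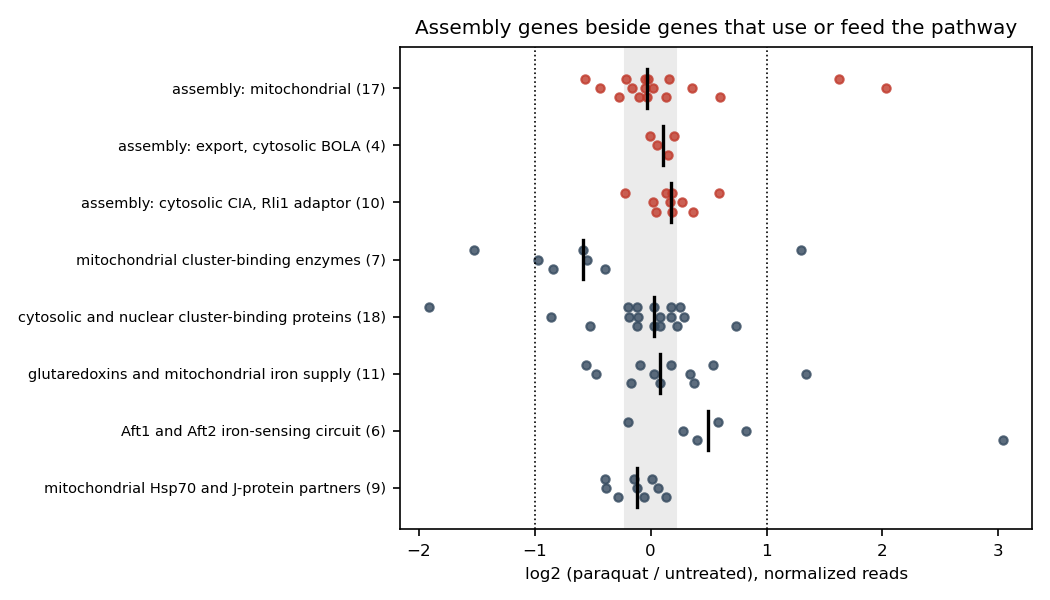
Log2 ratio of paraquat to untreated normalized reads for each gene of 3 groups of assembly genes (red) and 5 lists around the pathway (dark), with list medians as black bars, the middle 50% of all tested genes shaded and 2-fold dotted. Medians are -0.03 for the 17 mitochondrial assembly genes, 0.17 for the 10 cytosolic ones and -0.58 for the 7 mitochondrial cluster-binding enzymes.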

How the data were processed

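Per the labels' protocols, RNA was purified on RNeasy columns before Illumina library preparation. Tools named in the submitters' processing notes, without roles, are STAR 2.5.2b, Trimmomatic 0.36, DESeq2, featureCounts and Subread 1.5.2. The sources used here do not give the genome build, the annotation or the strandedness. The authors deposited a normalized signal per gene and library, log2 ratios, p-values and adjusted p-values, per the file headers. From the values, each deposited signal is a whole multiple (within 0.01 read) of 0.913 units in the paraquat and 1.10 in the untreated library, so reads were recovered by division. Each deposited log2 value is the ratio of paraquat to untreated signal on that scale, not shrunken. A row without a name (0.00675% of paraquat and 0.00449% of untreated reads) was left out.

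Folds are ratios of normalized values with exact binomial (Clopper-Pearson) intervals, which cover counting error only. PCR copies are not independent molecules. Trimmed means of M values were computed directly, and no count test was run, since 1 library per group leaves no spread to estimate. Of the named rows, 5920 matched RefSeq R64, and all 31 members did. Similar coding sequences were searched with BLAST+ 2.17.0. Computation used Python 3.11.15 with scipy 1.17.1, numpy 2.4.6, matplotlib 3.10.9 and pandas 2.3.3. The fold rule was run on simulated reads with counting noise only, which leaves out the spread between cultures.

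The members, the lists and the motifs were chosen with earlier results of these data known. Named genes are all members and, per list around the pathway, each gene at least 2-fold changed or else the one furthest from 0. Of the 6 strain markers with a row, BAR1, at 2.17-fold lower, was the 1 past 2-fold. RLI1, GRX5, MRS3, AFT1, STE2, STE3, HIS3 and the neighbouring genes were named outside this rule, after their values were seen. The list of mitochondrial cluster-binding enzymes holds 7 genes, and 1 further such gene was taken out of it and is not reported here. The 1.5-fold counts under other scalings were added after seeing the data.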

Additional observations from a re-analysis of the deposited data

How the results depend on the processing

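The count of 2 members at least 2-fold higher and 0 lower was the same when centred on the median gene, scaled to total gene reads, scaled by the trimmed mean of M values, taken relative to the own expression class, with pseudocounts of 1 and 10 and with no minimum mean. It became 4 higher at a 1.5-fold mark and 0 higher without ISU1 and ISU2, as both genes that passed were left out. Over all 5973 tested genes the 2-fold rule gave 184 higher and 91 lower on the deposited scale. When scaled to total gene reads it gave 312 higher and 44 lower, and relative to the own expression class 161 and 86. The median log2 change of members, 0.06, was 0.32 when scaled to total gene reads, where the median of all tested genes was 0.26, and 0.17 as a mean, against 0.02 over all tested genes. No member overlaps an annotated gene or has a near-identical copy, so leaving such members out left all 31. No paired analysis was possible because each group has 1 library. For the same reason no library could be left out, and the spread between cultures is unknown for every value.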
